A study of Macaca radiata with 6 samples.

Results

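GNLY and GZMA encode 2 proteins of the cytotoxic granule, and their probe sets were read in luteal tissue of the bonnet monkey (Macaca radiata) with and without prostaglandin F2-alpha (PGF2alpha). The genes were chosen by their annotated symbol, and 6 probe sets of the 52865 on the array carried GNLY or GZMA as their single symbol, out of 14132 genes named in this way. GNLY (Entrez gene 696059) had 2 of them and GZMA (Entrez gene 705712) had 4. The pair was proposed because earlier work on these data had found a large positive difference for a GNLY probe set and a smaller negative one for GZMA. The treatment differences of the 6 probe sets are therefore given as a description, with no test.

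Cytotoxic granules are the secretory lysosomes of natural killer (NK) cells and cytotoxic T cells, which release them onto a target cell. Granulysin, the product of GNLY, is a small saposin-like protein that damages microbial and cell membranes, and the mouse has no such gene. Granzyme A, the product of GZMA, is a serine protease that cuts after basic residues and enters target cells through pores made by perforin. Lymphocytes and macrophages are known residents of the corpus luteum, the progesterone-secreting gland that forms in the ovary after ovulation, and their numbers rise in its regression.

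The treated group received PGF2alpha, a prostaglandin known to bring about luteal regression, in 3 intramuscular injections at 59 µg/kg body weight on day 10 of the luteal phase. The vehicle group received phosphate-buffered saline, and in both groups the gland was taken at 24 h. Each group has 3 arrays of the Rhesus chip type, numbered 1 to 3 for PGF2alpha and 4 to 6 for vehicle. The labels give 3 monkeys but do not tie arrays to animals, so every error and p-value reflects only how these 6 samples spread, which may be technical.

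Median signals per array lay between 115 and 134 and the trimmed mean was equal on all 6 arrays. Probes were designed for the rhesus macaque, and mismatches to bonnet monkey RNA can lower a signal in both groups. Their effect on the differences was not tested. By the hybridisation times in the scanner experiment files, PGF2alpha replicate 2 was run with vehicle replicate 4 (run 2), and the other 4 arrays were run together earlier (run 1). The ratio of 3-prime to 5-prime beta-actin control signal, a measure of RNA quality, ran from 1.73 to 1.78 after PGF2alpha and from 1.49 to 2.25 with vehicle. STAR, which carries cholesterol into mitochondria and marks steroid-secreting luteal cells, averaged 63395 ± 7411 with vehicle (SD, n = 3), and all 9 of the luteal markers with a named probe set were bright enough to be tested. The brightness filter asks for a signal at or above the array median on at least 3 of the 6 arrays.

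All 6 probe sets of GNLY and GZMA passed that filter on every array. No detection call was used, so no signal could be set against background, and signals are not compared between probe sets because each has its own response. Differences are on the log2(signal + 40) scale, as PGF2alpha minus vehicle, with a standard error (SE) from the limma fit over all tested probe sets.

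GNLY was higher after PGF2alpha on both of its probe sets, by very different amounts. On probe set MmugDNA.24630.1.S1_s_at the signals were 21587, 30861 and 15555 on PGF2alpha replicates 1, 2 and 3. On the vehicle arrays they were 1973, 2934 and 3322 for replicates 4, 5 and 6. Every treated array lay far above every vehicle array, with 2.21 on the log2 scale between the nearest pair of arrays. The group means were 22668 ± 7710 and 2743 ± 695 (SD, n = 3), a ratio of 8.26 and a log2 difference of 3.01 (SE 0.264). Within the distribution of each array this probe set lay between the 91.6 and 95.2 percentiles with vehicle and between the 99.3 and 99.7 percentiles after PGF2alpha. By size of increase it ranked 27 among 26944 tested probe sets. The suffix _s_at in Affymetrix names marks a probe set that can match more than 1 transcript, and whether other transcripts add to this signal was not tested.

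The other GNLY probe set, Mmu.11250.2.S1_at, read 436, 575 and 344 on the treated arrays and 332, 320 and 274 on the vehicle arrays. The treated arrays again lay above the vehicle arrays, but PGF2alpha replicate 3 and vehicle replicate 4 were only 0.05 apart on the log2 scale. The means were 452 ± 116 and 309 ± 30.3 (SD, n = 3), with a log2 difference of 0.47 (SE 0.207). The 2 probe sets of GNLY placed the treated arrays in the same order, with replicate 2 highest and replicate 3 lowest, and the vehicle arrays in opposite orders. Within run 1 the log2 differences of MmugDNA.24630.1.S1_s_at and Mmu.11250.2.S1_at were 2.54 and 0.35. In run 2, with 1 array per group, they were 3.94 and 0.73.

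**Figure D1:**
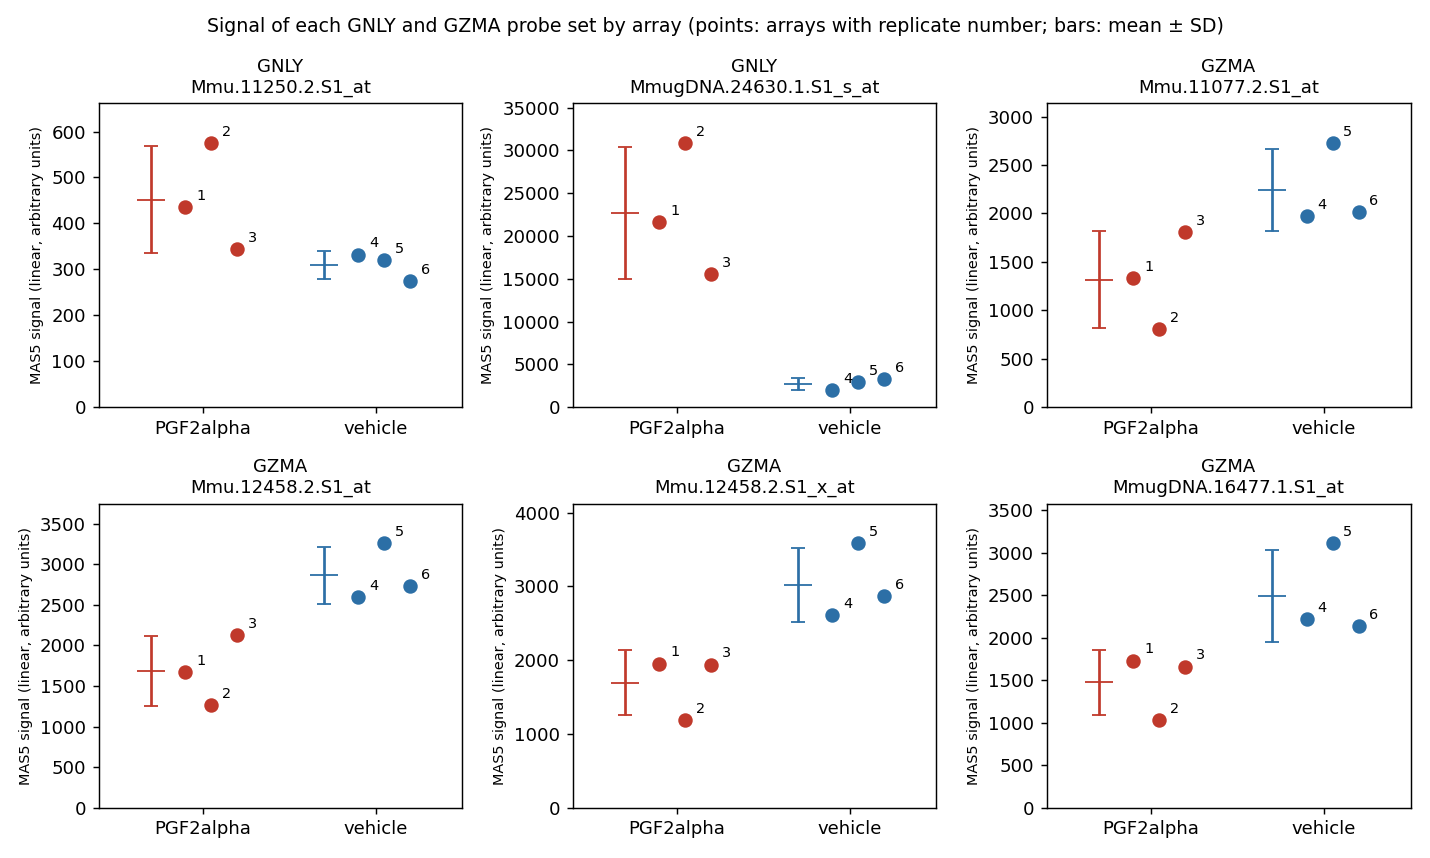
Linear MAS5 signal (arbitrary units, axes from 0) of each GNLY and GZMA probe set, with 1 point per array labelled by replicate number and the mean ± SD of 3 arrays beside each group. GNLY probe set MmugDNA.24630.1.S1_s_at lies between 15555 and 30861 after PGF2alpha and between 1973 and 3322 with vehicle, while the 4 GZMA panels show the treated arrays below the vehicle arrays.

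GZMA was lower after PGF2alpha on all 4 of its probe sets, by similar amounts. Probe set Mmu.12458.2.S1_x_at, the one of highest mean signal, read 1953, 1183 and 1940 on PGF2alpha replicates 1, 2 and 3 and 2616, 3584 and 2873 on vehicle replicates 4, 5 and 6. Replicate 2 was the lowest treated array and replicate 5 the highest vehicle array, and the groups did not overlap. The means of 1692 ± 441 and 3024 ± 501 (SD, n = 3) put the treated group at 55.9% of vehicle, a log2 difference of -0.85 (SE 0.218).

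Probe set Mmu.12458.2.S1_at has the same design name apart from its suffix, so the pair is likely to share target sequence. It read 1671, 1261 and 2125 after PGF2alpha and 2599, 3258 and 2733 with vehicle, a log2 difference of -0.77 (SE 0.199). MmugDNA.16477.1.S1_at read 1732, 1034 and 1661 against 2221, 3111 and 2138, a difference of -0.75 (SE 0.229). In each of these the highest treated array stayed below the lowest vehicle array.

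The narrowest separation was on Mmu.11077.2.S1_at. Its signals were 1336, 805 and 1809 after PGF2alpha and 1976, 2727 and 2012 with vehicle. PGF2alpha replicate 3 lay 0.12 below vehicle replicate 4 on the log2 scale, and the group difference was -0.80 (SE 0.271). By size of decrease the 4 GZMA probe sets ranked between 838 and 1144 among the 26944 tested.

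The 4 GZMA probe sets read the same arrays alike. Relative to its own vehicle mean, each stood between -1.41 and -1.15 on the log2 scale in PGF2alpha replicate 2, between -0.76 and -0.49 in replicate 1 and between -0.62 and -0.29 in replicate 3. The vehicle arrays ran from -0.20 to 0.34, with replicate 5 highest on every probe set. That array also had the highest 3-prime to 5-prime beta-actin ratio, 2.25. Without it the GZMA differences lay between -0.72 and -0.59, and the part of RNA quality in them was not tested. The 4 readings come from the same 6 RNA samples and are not separate replicates of the treatment. In these tissue samples, fewer cells of a type and less RNA per cell cannot be told apart.

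GNLY and GZMA thus stood on opposite sides of vehicle in all 3 treated arrays. PGF2alpha replicate 2 had the highest GNLY signal on both GNLY probe sets and the lowest GZMA signal on all 4 GZMA probe sets. It is also the only treated array of run 2, and the part of the run in this was not tested. Within run 1 the GZMA differences ran from -0.71 to -0.58, and in run 2 from -1.25 to -1.02. Without PGF2alpha replicate 2 the GZMA differences of the 4 probe sets lay between -0.61 and -0.50, and the GNLY differences were 2.76 and 0.30. For GZMA probe set Mmu.11077.2.S1_at and for GNLY probe set Mmu.11250.2.S1_at, which stood at -0.80 and 0.47 with all arrays, this is a change of more than 1.5 times.

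In all 6 probe sets the treated and vehicle arrays did not overlap. The background for that is 26.8% of the 26944 tested probe sets, 13.0% with the treated arrays higher and 13.7% with them lower. Since the pair was chosen on this contrast, nothing is read from that count.

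**Figure D2:**
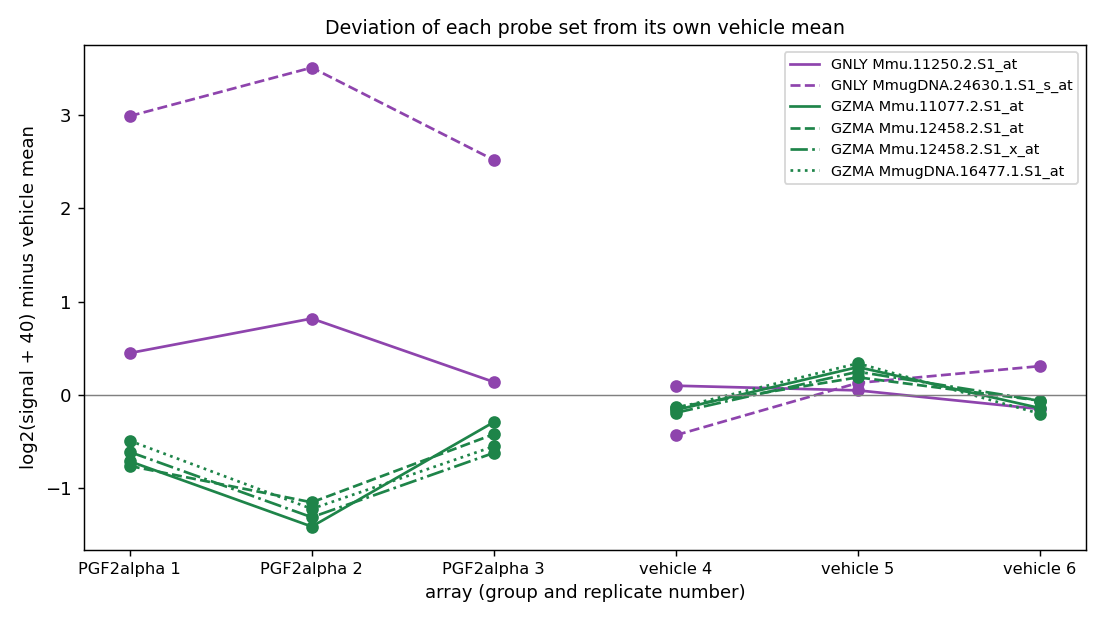
Each probe set's log2(signal + 40) minus its own vehicle mean, by array; lines join the arrays of one probe set within a group and carry no order. GNLY probe set MmugDNA.24630.1.S1_s_at stands between 2.52 and 3.51 on the treated arrays and the 4 GZMA probe sets between -1.41 and -0.29.

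Other genes of cytotoxic lymphocytes were read from 5 lists of granule proteins, NK receptors, T cell markers, regulators and effector cytokines, which exclude GNLY and GZMA. Of 80 listed genes 56 were named on the array and 30 passed the brightness filter. Over all 26944 tested probe sets 5.01% were called, 3.02% higher and 1.99% lower, and of the genes 6.07%. In the limma test, adjusted by Benjamini-Hochberg over all tested probe sets at a threshold of 0.05, 2 of the 30 passed as higher and 0 as lower, and at an unadjusted p under 0.05 the counts were 7 and 1. One of the 2, CCL5, was bright enough to be tested only through the treated arrays, on which it is high, so the filter favoured its call. Without it 1 of 29 rose and 0 fell, with 6 and 1 at an unadjusted p under 0.05 and a median of 0.24. The background for adjusted calls is 3.76% of 9980 genes higher and 2.31% lower. No share of all genes was computed at an unadjusted p under 0.05 in the limma test. The counts at that threshold, here and in the single lists, therefore have no background, and nothing is read from them. With CCL5 the median log2 difference of the 30 genes was 0.26, against -0.018 over all tested genes. Of TYROBP and CCL5, both passed without PGF2alpha replicate 3, 1 of them (TYROBP) without vehicle replicate 4 or 5, and 0 without PGF2alpha replicate 1 or 2 or vehicle replicate 6.

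Among granule proteins, 7 of 10 listed genes were named, 5 were tested and 0 passed in the limma test (1 higher and 0 lower at an unadjusted p under 0.05), with a median of 0.29. SRGN, the proteoglycan serglycin that packs granzymes and is also made by many other blood and vascular cells, read 59009, 56060 and 58208 on the treated arrays and 48854, 47223 and 45496 on the vehicle arrays. The groups did not overlap, and the log2 difference was 0.29 (SE 0.099, limma adjusted p = 0.132). CST7, the inhibitor cystatin F of granule proteases, stood at 0.63 (SE 0.369, adjusted p = 0.372).

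The other granzymes were looked at after their values were seen. GZMB, the granzyme that cuts after aspartate and activates caspases, read 11726, 8323 and 6944 after PGF2alpha and 10091, 7582 and 4702 with vehicle. These groups overlapped widely, with a log2 difference of 0.30 (SE 0.28, limma adjusted p = 0.59). GZMK, a second trypsin-like granzyme, averaged 1123 ± 61.6 and 1246 ± 159 (SD, n = 3), a difference of -0.14 (SE 0.152, adjusted p = 0.656). GZMH averaged 152 ± 118 and 166 ± 32 (SD, n = 3), near the array medians, with a difference of -0.26 (SE 0.401, adjusted p = 0.774). NKG7 and CTSW, further granule proteins of killer cells, stayed below the filter, with means of 128 and 41.6 after PGF2alpha and 104 and 11.6 with vehicle. The differences between GNLY or GZMA and these genes were not tested.

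Of 8 tested genes of granule transport and release, 0 rose and 1 fell, with a median of -0.19. UNC13D, which primes granules for fusion with the cell membrane, read 317, 367 and 303 after PGF2alpha and 473, 750 and 667 with vehicle. It fell by 0.84 on the log2 scale (SE 0.199, limma adjusted p = 0.0451), and adjusted p ran from 0.0326 to 0.155 over the alternatives, with the call lost in 10 of 18. Its other probe sets stood at -0.67 and -0.55, with adjusted p of 0.139 and 0.275. The first of them, MmugDNA.40832.1.S1_at, reached the array median only on the vehicle arrays. The filter thus admitted it through the group where it is high, and its p-value carries that selection. RAB27A, the small GTPase that docks granules, was at -0.49 (SE 0.193, adjusted p = 0.187).

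Of 14 named NK receptors and adaptors, 6 were tested, 1 rose and 0 fell, with a median of 0.18. TYROBP, the signalling adaptor DAP12, read 3456, 5200 and 3421 after PGF2alpha and 1871, 922 and 1859 with vehicle. It rose by 1.39 (SE 0.282, limma adjusted p = 0.0276, from 0.0183 to 0.132 over the alternatives), on a probe set of the _s_at type. TYROBP is equally known from macrophages and is in that list too. FCGR3, the CD16 receptor of NK cells and macrophages, stood at 1.18 (SE 0.288, adjusted p = 0.0506). Over the NK list the summed signal was 10881 to 13243 after PGF2alpha and 8236 to 9043 with vehicle. Bright probe sets weigh most in such a sum. TYROBP entered it with mean signals of 4025 after PGF2alpha and 1551 with vehicle, KLRD1 with 3789 and 3197, and CD244 with 267 and 586.

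Other receptors of the NK list were also looked at after their values were seen. KLRD1, the CD94 receptor subunit, read 4168, 3842 and 3357 after PGF2alpha and 2991, 3198 and 3404 with vehicle on its probe set of highest mean. Its log2 difference was 0.24 (SE 0.14, limma adjusted p = 0.373), and its 3 other probe sets stood at 0.15, -0.60 and -0.41. NCR3, the activating receptor NKp30, averaged 1242 ± 106 and 1288 ± 49.4 (SD, n = 3), a difference of -0.05 (SE 0.142, adjusted p = 0.876). CD244, the receptor 2B4, stood at -1.00 (SE 0.287, adjusted p = 0.0839) and was called lower without PGF2alpha replicate 3 (adjusted p = 0.0483). NCAM1 stood at 0.13 (SE 0.138, limma adjusted p = 0.655), and its untested probe sets ran from -0.85 to 0.06. Below the filter, SH2D1B, HCST, KLRF1 and CD160 stood at 0.87, 0.31, 0.29 and 0.24. KLRC1, CD226, CD7 and KLRK1, also untested, stood at -0.43, -0.24, -0.07 and -0.05. In the NK list 4 named genes lay below the median of every array, and no list held a signal of 0.

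T cell markers gave no call, with 0 of 6 tested genes higher or lower among 13 named, 0 also at an unadjusted p under 0.05 from limma, and a median of 0.10. ZAP70, the kinase of the T cell receptor, stood at 0.53 (SE 0.284, limma adjusted p = 0.328) and CD4 at 0.39 (SE 0.257, adjusted p = 0.426). CD8A, which marks cytotoxic T cells, read 49.3, 155 and 101 after PGF2alpha and 51.7, 131 and 80 with vehicle and did not pass the filter. The summed signal of the list was 4527 to 5050 after PGF2alpha and 3820 to 5576 with vehicle.

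Of 8 tested regulators of cytotoxic lymphocytes 0 passed in the limma test (1 higher and 0 lower at an unadjusted p under 0.05), with a median of 0.18. IL18, which primes NK cells, had a difference of 1.04 (SE 0.427, limma adjusted p = 0.205), with PGF2alpha replicate 2 at 2405 and the other treated arrays at 738 and 665. IL15, a survival factor of NK cells, stood at 0.64 (SE 0.315, adjusted p = 0.285).

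Of 10 named effector cytokines 5 were tested. Leaving out CCL5, which reached the array median only after PGF2alpha, 0 of 4 passed in the limma test (2 higher and 0 lower at an unadjusted p under 0.05), with a median of 0.61. CCL5, a chemokine that attracts T cells and is stored by killer cells, read 512, 583 and 211 after PGF2alpha and 74.6, 99.6 and 85.6 with vehicle. The groups did not overlap, and the log2 difference was 1.81 (SE 0.337) on this probe set and 1.48 on the other. On both CCL5 probe sets only the 3 treated arrays reached the array median, so the filter selected them through the group where they are high. Their adjusted p-values in the limma test, 0.0218 and 0.0371, carry that selection, and the first ran from 0.00184 to 0.183 over the alternatives. LTB, lymphotoxin beta, stood at 0.88 (SE 0.254, adjusted p = 0.084).

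XCL1, the chemokine lymphotactin of NK and activated T cells, was picked out after its values were seen. Probe set MmugDNA.38090.1.S1_at read 693, 630 and 124 on the treated arrays and 2.58, 6.35 and 3.72 on the vehicle arrays. It was at or above the array median on 2 arrays and so was not tested, and with no filter it was called (log2 difference 3.29, limma adjusted p = 0.0221). Its other probe set, MmugDNA.2039.1.S1_s_at, read 232, 421 and 9 against 9.99, 12.7 and 6.73, so that PGF2alpha replicate 3 lay among the vehicle arrays. All vehicle signals of XCL1 were far below the array medians, and the size of the difference ran from 1.81 with a pseudocount of 160 to 4.79 with one of 10.

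**Figure D3:**
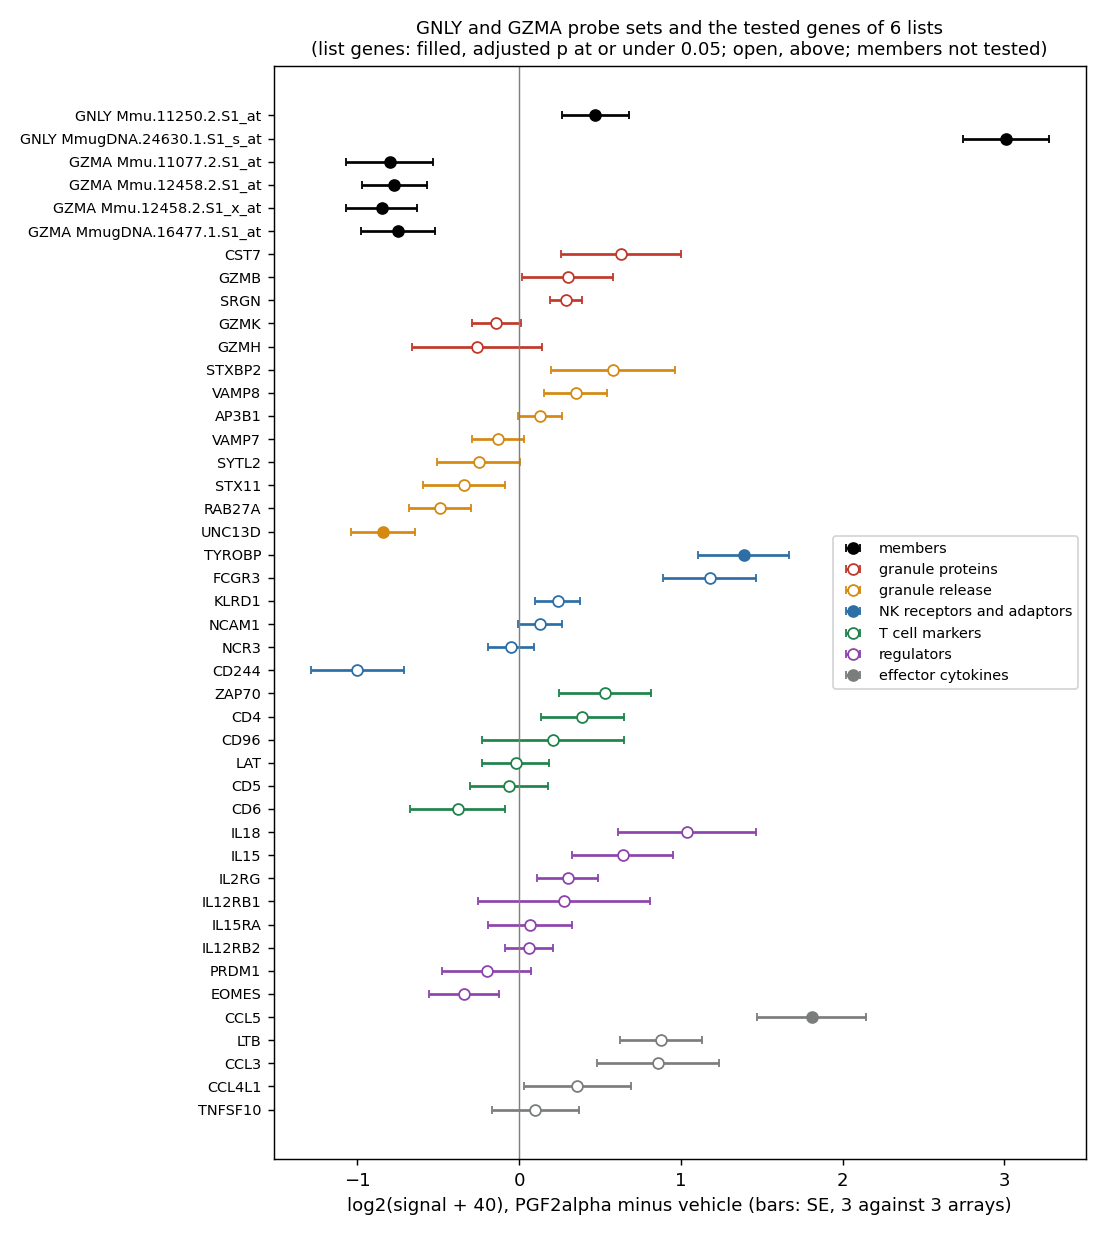
Log2 difference on log2(signal + 40), PGF2alpha minus vehicle, with SE bars, for the 6 GNLY and GZMA probe sets (black) and the tested genes of 6 lists of cytotoxic lymphocyte function. GNLY probe set MmugDNA.24630.1.S1_s_at at 3.01 lies to the right of every list gene plotted, and among the list genes TYROBP, CCL5 and UNC13D are filled for an adjusted p at or under 0.05, CCL5 after a filter that only its treated arrays reached.

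Substrates, inhibitors and relatives of the 2 proteins gave 0 calls in the limma test. SERPINB9 was called higher in 2 of 18 alternatives, among them the filter at the 70th percentile (adjusted p = 0.0381), and GM2A was called lower in 1 of 18, without PGF2alpha replicate 3 (limma adjusted p = 0.0153). At an unadjusted p under 0.05 the counts were 0 of 5 substrates, 1 of 3 inhibitors and 1 of 4 listed relatives, namely GM2A. Of the 5 tested substrates of granzyme A, HMGB2, a DNA-bending protein of the SET complex, stood at -0.31 (SE 0.153, limma adjusted p = 0.282) and the nuclear lamin LMNB1 at 0.40 (SE 0.199, adjusted p = 0.296), and the list's median was -0.06. Of the 3 tested genes of the inhibitor list, SERPINB9, which blocks granzyme B, read 749, 717 and 743 after PGF2alpha and 474, 458 and 507 with vehicle. These groups did not overlap, and the difference was 0.58 (SE 0.145, limma adjusted p = 0.0542), and a further SERPINB9 probe set read 0.23. SERPINB6, another protease inhibitor of that list, stood at 0.36 (limma adjusted p = 0.548). The list of saposin-type relatives also held the acid phosphatase ACP5 and the lipid-transfer protein GM2A, which are not of that family. In it GM2A was at -1.11 (SE 0.453, limma adjusted p = 0.203) and the lipopolysaccharide hydrolase AOAH at 0.43 (SE 0.276, adjusted p = 0.424). The other AOAH probe set stood at -0.47 (limma adjusted p = 0.431).

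Part of the macrophage list was also higher after PGF2alpha. Of 14 tested markers 7 passed as higher and 0 as lower in the limma test, with a median of 1.14. One of them, MARCO, reached the array median only on the treated arrays, and without it 6 of 13 rose, with a median of 1.05. The scavenger receptor MSR1 and the complement genes C1QA, C1QB and C1QC did not pass, at 0.29, 0.32, 0.55 and 0.41 (limma adjusted p from 0.397 to 0.542). The summed signal of the list was 53529 to 87582 after PGF2alpha and 21489 to 36744 with vehicle. LYZ, the brightest gene in it, had mean signals of 35004 and 17848 and was not called (limma adjusted p = 0.104). With MARCO counted, the number called higher was between 2 and 4 without PGF2alpha replicate 1 (3), PGF2alpha replicate 2 (2), vehicle replicate 5 (4) or vehicle replicate 6 (2). Of 12 named neutrophil and mast cell markers 5 were tested. Of the 5 tested, 4 rose and 0 fell, with a median of 2.18 and sums of 14573 to 32188 against 6255 to 13148. The 4 were S100A8, S100A9, MMP9 and LCN2, and LCN2 was called in 7 of 17 alternatives. Only 1 of the 4 LCN2 probe sets was tested, and the others, below the filter, all had negative log2 differences. Among untested neutrophil genes, ELANE stood at -0.61 and MPO at -0.28, with the other MPO probe set at 0.66. CSF3R and S100A12, also untested, stood at 1.09 and 0.46. KIT, the stem cell factor receptor and the 1 tested marker of mast cells, stood at -1.29 (limma adjusted p = 0.221), with overlapping groups. Its signal of 9310 on vehicle replicate 4 is part of the vehicle sums. Without probe sets of _s_at and _x_at type 2 of the list were called. The part of these cells in the GNLY and GZMA differences was not tested.

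The named genes whose profile over the 6 arrays came nearest to GNLY probe set MmugDNA.24630.1.S1_s_at were found by the root mean square difference of mean-centred log2(signal + 40). MRC1, the macrophage mannose receptor, was nearest at 0.252, with signals of 8510, 11403 and 8176 after PGF2alpha and 1109, 1228 and 1166 with vehicle. IL1RN, the interleukin-1 receptor antagonist, followed at 0.258, then RETN, which encodes resistin, at 0.284 and the scavenger receptor MARCO at 0.302. PTCHD1, the decoy receptor IL1R2, the interleukin-33 receptor IL1RL1 and ROGDI lay between 0.329 and 0.394. These 8 genes had log2 differences between 2.34 and 3.53. MARCO and ROGDI reached the array median only on the treated arrays, so the filter admitted them through the group where they are high.

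The genes nearest to GZMA probe set Mmu.12458.2.S1_x_at were found in the same way. MAP3K13, a kinase of the JNK pathway, was nearest at 0.0665, with signals of 269, 153 and 279 after PGF2alpha and 382, 468 and 402 with vehicle. SLC35F5, a solute carrier, followed at 0.0792, then CDADC1 at 0.0919 and PAPSS2, which makes the sulfate donor, at 0.0955. PEG3, FBXW4, RTN4IP1 and CRYL1 lay between 0.103 and 0.122. The log2 differences of these nearest genes ran from -0.94 to -0.71. RTN4IP1 reached the array median only on the vehicle arrays, so the filter admitted it through the group where it is high. Nearness here describes 6 arrays whose group difference is part of the profile. That difference is larger for GNLY, so the distances are not compared between GNLY and GZMA.

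**Figure D4:**
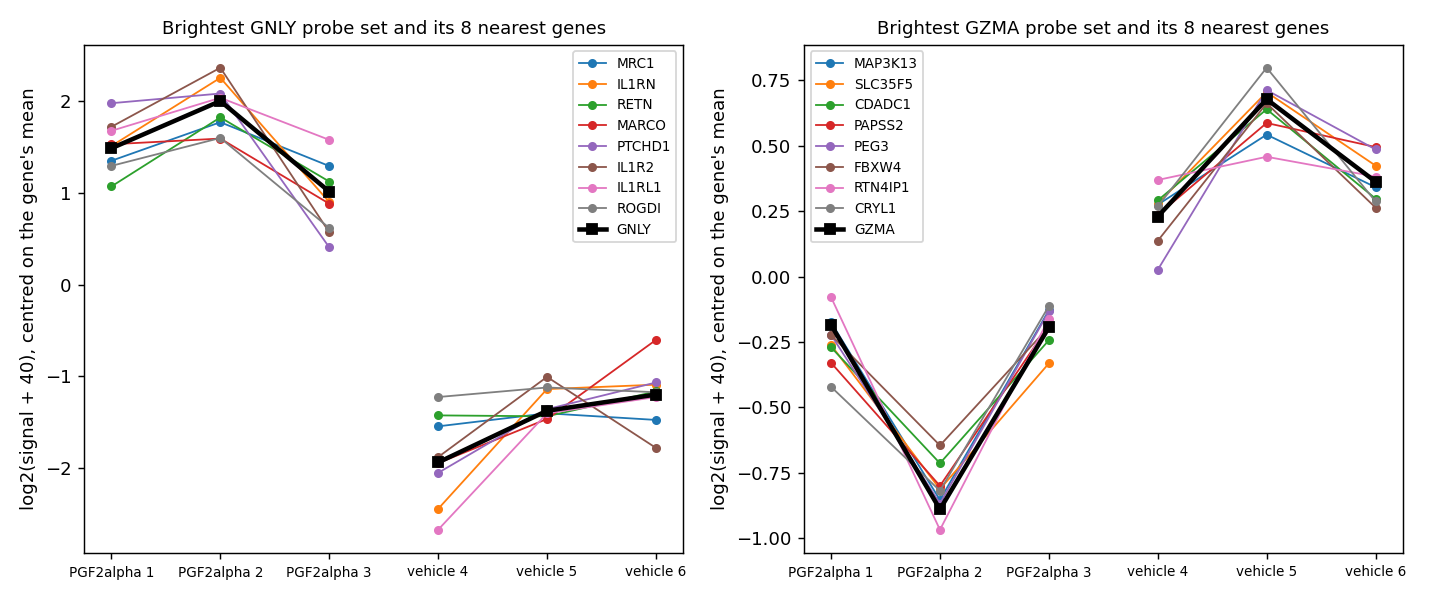
Mean-centred log2(signal + 40) by array for the GNLY (left) and GZMA (right) probe sets of highest mean and the 8 named genes nearest to each; lines join the arrays of a gene within a group and carry no order. The genes nearest to GNLY are high on the treated arrays, with log2 differences from 2.34 to 3.53, and those nearest to GZMA are low there, from -0.94 to -0.71.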

How the data were processed

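Per the submitters' processing notes, the authors obtained 1 linear signal intensity for each probe set with MAS5, whose version is not given in the sources used here. Since the trimmed mean (2% left out at each end) did not differ between arrays, the deposited table was used without further scaling. It had 52865 rows, and 99 control rows were not tested. A platform annotation that can be old named a single gene for 24969 rows, more than 1 for 361 and no gene for 27535.

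Values were taken as log2(signal + 40), so differences of low genes are understated. For the group comparison, lmFit and trended eBayes from limma 3.58.1 (R 4.3.3) were run with no covariate, two-sided. A list gene was read from its tested probe set of highest mean. Named genes were all GNLY and GZMA probe sets, the list genes past the threshold or else the 2 of smallest p, and the 8 genes nearest to each member. The members, lists and tests were chosen with earlier results of these data known. The fit was tested on simulated data with changes set into 200 bright probe sets. It recovered 53% of the 2-fold and 86% of the 4-fold changes, and 6 of its 145 calls were false. With none changed it made 0 calls. No change was set into dim probe sets, so a list with 0 calls can hold changes that the fit missed. Alternatives were 2 other normalizations, pseudocounts of 10 and 160, a filter at the 70th percentile or none, a prior without trend or a robust one, array weights, the run as a block, run 1 alone, probe sets of _s_at and _x_at type left out, and each array left out.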

Additional observations from a re-analysis of the deposited data

How the results depend on the processing

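The log2 differences of the 6 GNLY and GZMA probe sets kept their sign under every alternative run on them, and 71 of 72 values moved by less than the spread between replicates. The other was GNLY probe set MmugDNA.24630.1.S1_s_at within run 1, at 2.54. With single arrays left out it ran from 2.76 to 3.25, and Mmu.11250.2.S1_at from 0.30 to 0.64. The same ranges for GZMA were -1.06 to -0.50 on Mmu.11077.2.S1_at, -0.95 to -0.59 on Mmu.12458.2.S1_at, -0.97 to -0.61 on Mmu.12458.2.S1_x_at and -0.88 to -0.52 on MmugDNA.16477.1.S1_at. Over all tested probe sets, 815 were called higher and 536 lower. These counts were 533 and 293 with no filter, 440 and 229 with eBayes without trend, and 44 and 7 within run 1, while array weights gave 848 lower. With single arrays left out they ran from 166 to 1045 higher and from 57 to 858 lower. Scaling to one median gave 818 and 431. Of the 30 lymphocyte genes, 2 higher became 1 with eBayes without trend, 4 with array weights and 0 within run 1. With single arrays left out they ran from 0 to 3 higher and from 0 to 1 lower. ITGA2B, a platelet marker, changed sign from -0.30 to 0.17 without PGF2alpha replicate 2 and to 0.00 within run 1. The causes were not tested. Fewer arrays enter the fits within run 1 and with an array left out. No paired analysis was possible because the groups share no replicate numbers. Signal over background is unknown, which limits the size of differences from low signals, and 3 arrays per group limit the precision.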

Other observations

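B cell and plasma cell markers were a further lymphocyte list, with 10 genes named and 5 tested, of which 0 rose and 1 fell in the limma test (median log2 difference -0.30). FCRL1, an Fc receptor-like protein of B cells, read 419 ± 84.3 after PGF2alpha and 756 ± 80 with vehicle (SD, n = 3) and fell by 0.81 on the log2 scale (adjusted p = 0.0399, from 0.0219 to 0.264 over the alternatives), on a probe set of the _s_at type. BANK1, a scaffold of B cell receptor signalling, stood at -0.75 (adjusted p = 0.073). FCRL1 was called in 9 of 17 alternatives and in 0 of the 5 fits without PGF2alpha replicate 1 or 2 or without a vehicle array. The other FCRL1 probe sets, all below the filter, stood at -0.13, 0.34 and -0.25. JCHAIN, the joining chain of plasma cell antibodies, stood at 0.96 (limma adjusted p = 0.221), and at an unadjusted p under 0.05 the list counted 1 gene higher and 2 lower.

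Markers of red cells and platelets, a measure of blood in a tissue sample, gave 0 calls of 5 tested in limma, with 0 higher and 1 lower at an unadjusted p under 0.05. HBB, the beta chain of haemoglobin, stood at -0.91 (SE 0.326, limma adjusted p = 0.151) and ITGA2B at -0.30 (adjusted p = 0.719). Their summed signal was 1308 to 3067 after PGF2alpha and 2309 to 3062 with vehicle. Of 10 tested endothelial markers 1 rose and 0 fell, namely the junction protein CLDN5 (0.90, limma adjusted p = 0.0266), with endoglin (ENG) at 0.58 (adjusted p = 0.0548). The median of the list was 0.17, and EMCN, KDR and VWF stood at -0.46, -0.38 and -0.32 (limma adjusted p from 0.257 to 0.542). CLDN5 was called in 12 of 18 alternatives, and in 0 of the fits without PGF2alpha replicate 1 or 2 or vehicle replicate 4 or 6. Of 9 luteal markers 1 rose and 2 fell, with a median of -0.77. STAR fell by 0.67 (limma adjusted p = 0.0497) and the androgen-forming CYP17A1 by 1.46 (adjusted p = 0.0299), and TSPO, a mitochondrial protein also of macrophages, rose by 0.92 (adjusted p = 0.0257). The other TSPO probe set stood at 0.10 (limma adjusted p = 0.88), and the other of CYP17A1, below the filter, at -0.15. STAR was called in 6 of 18 alternatives (adjusted p from 0.00822 to 0.249), CYP17A1 in 14 and TSPO in 12. With single arrays left out the number of luteal markers called lower ran from 0 (without PGF2alpha replicate 1 or 2) through 1 (without any 1 of the vehicle arrays) to 5 (without PGF2alpha replicate 3). It was 1 with no filter, 0 with eBayes without trend and 4 with array weights.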
